A study of Mus musculus with 30 samples.

Results

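The joint and the skin of mice with collagen-induced arthritis (CIA) and of healthy mice were compared in a pilot single-cell RNA-seq table of 8 organs, using the 3 libraries named Joint and the 2 named Skin of the 30 libraries in that table. Single cells were captured in Seq-Well arrays, in which cells settle into small wells with barcoded beads that bind polyadenylated RNA. All animals were male DBA1/J mice, and the study's methods put its mice at 8 to 12 weeks of age. The joint libraries came from the healthy mouse H3 and from the CIA mouse S1, which gave 2 libraries. The skin libraries came from the healthy mouse H6 and from the same mouse S1. H3 and H6 had received PBS and had an arthritis score of 0. S1 had received 100 µg bovine collagen II in complete Freund's adjuvant into the skin near the tail base, with a booster in incomplete adjuvant on day 20, and had an arthritis score of 8 summed over the limbs. The joint was a whole knee joint, so that its tissue could include marrow, and the skin site was not given. Both organs were minced and digested with enzymes, joint with collagenase IV and skin with collagenase I. The study's methods also describe the removal of red cells from the organs of each mouse with a lysis buffer. The library names end in 2CIA or CIA, which the labels do not explain; below, the joint libraries are called H3, S1-2CIA and S1-CIA, and the skin libraries H6 and S1. The names of H3 and of S1 skin end in 2CIA and that of H6 in CIA, so that the skin mice differed in suffix as well as in state. With the mouse as the replicate, 2 joint samples faced 2 skin samples, and S1 was in both.

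A knee joint brings together articular cartilage, a synovial membrane that secretes lubricating fluid, tendon and ligament insertions, bone and the bone marrow within it. Chondrocytes lay down type II collagen and the large proteoglycan aggrecan, lining fibroblasts of the synovium secrete lubricin, and marrow holds the precursors of neutrophils and red cells. Skin is a stratified epithelium of keratinocytes over a collagen-rich dermis, with hair follicles and sebaceous glands. Basal keratinocytes divide and anchor to the basement membrane with keratins 5 and 14, cells above them change to keratins 1 and 10, and sebocytes fill with lipid and burst. Both organs contain fibroblasts that make type I and type III collagen.

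The values were whole-number units, sums of molecule counts over a barcode and its nearest neighbours, and carry no simple counting error. The joint libraries held 193, 606 and 70 barcodes and the skin libraries 158 and 150. Many barcodes had the same profile as another, and 75, 248 and 20 distinct profiles were found in joint and 68 and 62 in skin. Summed units were 1966588, 7881428 and 591444 in joint and 1826565 and 1419505 in skin. Any pair of libraries shared 0 to 2 barcodes. The number of genes above 0 ranged from 3218 in S1-CIA joint to 16460 in S1-2CIA joint, and 3205 of 6042 reference genes were listed at 0 in S1-CIA joint against 7 in S1-2CIA joint. A value of 0 in H3 or S1-CIA joint is therefore given only as listed at 0. Values are given as UPM, a gene's units over the scaled total of its library, on the scale of CPM but counting smoothed units, with the 4 organ samples scaled to each other. The scaled totals were 842233, 1238302 and 656990 in H3, S1-2CIA and S1-CIA joint and 970773 and 985341 in H6 and S1 skin. Values not scaled between samples are called plain UPM. In these dissociated samples, fewer cells of a type and less RNA per cell cannot be told apart.

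Of 5734 genes whose mean level reached 25 UPM, 174 (3.03%) were higher in joint and 117 (2.04%) were higher in skin at a limma adjusted p under 0.05, with the 2 libraries of S1 joint added up. The median log2 difference, joint minus skin on the log2(UPM + 10) scale, was -0.14. The number of genes with an unadjusted p under 0.05 was 1090. A gene that passed is written as called below, and the counts of each gene list can be read against these shares and this median. These calls rested on few mice: leaving out either joint mouse or either skin mouse left, with 1 animal in that organ assumed to vary like the others, 0 to 18 genes higher in joint and 0 to 9 higher in skin, and leaving out S1-2CIA joint left 7 and 1, against 174 and 114 without S1-CIA joint. With a pseudocount of 1 in place of 10 the counts were 52 and 35, and with values under 50 UPM set to 0 in every sample limma called 0 genes in either direction, with 997 at an unadjusted p under 0.05. Without H3 joint and without S1 joint the calls were 0, with 761 and 1093 at an unadjusted p under 0.05. An exact permutation test of 2 mice against 2 cannot go below 0.333, so that no single gene could pass a test of that kind. The limma p-values rest on the spread between these few animals, moderated by the spread of the other genes tested. The 2 animals of an organ also differed in state, and S1 entered both organs as if independent. These p-values therefore do not measure the spread between animals alone. For a gene listed at 0 in an organ, the fitted difference depends on the pseudocount and is no bound on the fold.

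Library by library, all 3 joint libraries lay above both skin libraries for 441 genes (7.69%) and below both for 1389 genes (24.2%). Of these 1389 genes, 263 were listed at 0 in both H3 and S1-CIA joint. In plain UPM the same counts were 529 and 1289, and with the S1 joint libraries added up they were 1255 and 1616. Where the nearest joint and skin libraries were required to lie at least 2-fold apart on the log2(UPM + 10) scale, 151 genes (2.63%) were higher in joint and 264 (4.6%) in skin, and 145 of those 264 were listed at 0 in H3 and S1-CIA joint. Of the genes called by limma, 125 of 174 on the joint side and 117 of 117 on the skin side also had separate libraries, a share that the choice of called genes helps to set. Of those 117, 68 were listed at 0 in both H3 and S1-CIA joint, against 425 of the 5734 genes tested. Of the 174, 49 were listed at 0 in both skin libraries, against 91 of the genes tested.

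**Figure D1:**
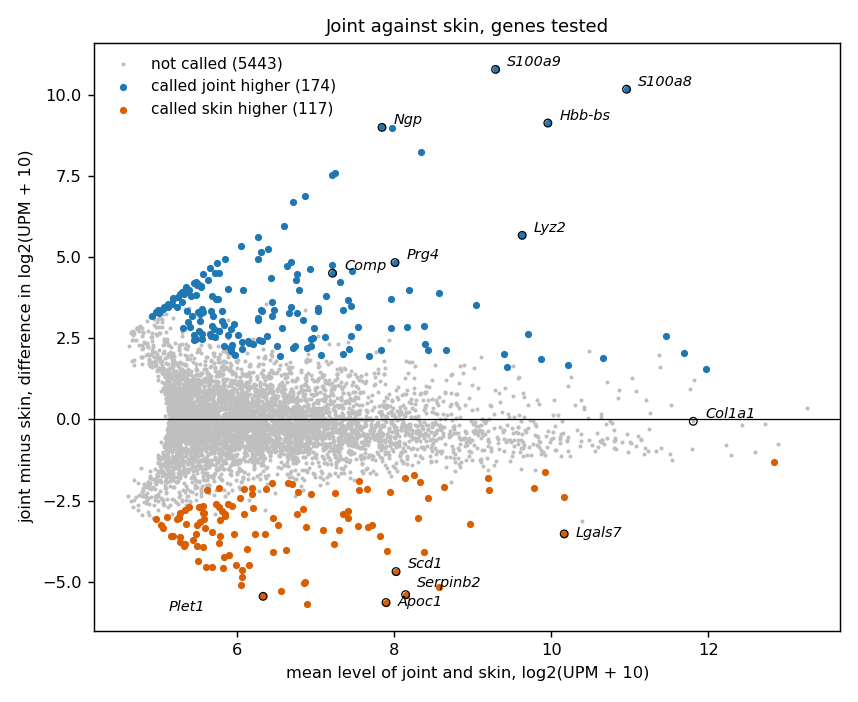
Each point is a gene tested, with its mean level on the horizontal axis (log2 of UPM + 10) and its difference between joint and skin on the vertical axis (log2, positive when joint was higher). The 174 genes called higher in joint and the 117 called higher in skin are coloured, the rest are grey, and the genes farthest from 0 on the joint side belong to neutrophils and red cells.

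The genes that separated the organs most on the joint side were those of neutrophils and red cells. S100a9, which with S100a8 forms calprotectin of the neutrophil cytosol, lies at chr3:90692630-90695721 and had 14868, 40527 and 11548 UPM in H3, S1-2CIA and S1-CIA joint and 0 and 9.02 UPM in H6 and S1 skin. The difference on the log2 scale was 10.78 ± 0.53 SE, limma adjusted p = 7.94e-08. S100a8 had 27130.1, 105093 and 39474 UPM in joint and 11.2 and 90.2 UPM in skin, a difference of 10.17 ± 0.68 SE, limma adjusted p = 7.75e-07. Joint and skin did not overlap for either gene, and S1-2CIA joint was the highest library for both.

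Genes of neutrophil granules lay on the same side. Ngp, a granule protein of neutrophil precursors, had 3783, 6970.3 and 2434 UPM in joint and was listed at 0 in both skin libraries, with a fitted difference of 8.99 ± 0.49 SE, limma adjusted p = 1.23e-07. Camp, the precursor of the antimicrobial peptide cathelicidin, had 4759, 6680.4 and 2412 UPM in joint against 7.97 and 9.02 UPM in skin (difference 8.24 ± 0.46 SE, limma adjusted p = 1.23e-07). Ltf, the iron-binding lactoferrin of secondary granules, had 744, 1454 and 549.9 UPM and was at 0 in skin. All 3 genes were lowest in S1-CIA joint, and even there they lay far above skin. Elane, the elastase of early granules, had 219, 327 and 235 UPM in joint and was at 0 in skin (4.82 ± 0.57 SE, limma adjusted p = 0.000186). Mpo, the myeloperoxidase of the same granules, had 95.5, 229 and 0 UPM in joint and was at 0 in skin. Of 16 tested members of the neutrophil granule and precursor list, 12 were called higher in joint and 0 higher in skin, and their median difference was 4.12.

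Mature neutrophil genes were called higher in joint for 10 of 20 tested members and higher in skin for 1. Retnlg, a resistin-like secreted protein of neutrophils, had 1011, 3542 and 458 UPM in joint and was at 0 in skin (difference 7.54 ± 0.59 SE, limma adjusted p = 3.86e-06). Stfa3, a cystatin-type protease inhibitor, was the member higher in skin, with 0, 22.5 and 0 UPM in joint and 235 and 69.4 UPM in skin (-2.99 ± 0.73 SE, limma adjusted p = 0.0283). The summed level of the list was 44780.1, 154643 and 52849.7 UPM in joint against 506 and 435 UPM in skin. The joint libraries thus held high levels of neutrophil genes, and their part in the other differences between joint and skin was not tested.

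Red cell genes were as strongly one-sided. Hbb-bs, an adult beta globin, had 13005, 36647 and 4894 UPM in joint and 15.4 and 47.2 UPM in skin (9.13 ± 0.54 SE, limma adjusted p = 2.03e-07). Hba-a1, an alpha globin, had 2476, 10820.1 and 448 UPM in joint and was at 0 in skin (8.97 ± 0.60 SE, limma adjusted p = 7.75e-07). S1-2CIA joint was again the highest library, and S1-CIA the lowest of the joint libraries for both globins. Near-identical globin copies can share reads, so the split between copies is uncertain. Of 4 erythroid genes tested, 3 were called higher in joint, with summed levels of 16686, 51755 and 5679.6 UPM against 129.7 and 129.8 UPM.

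**Figure D2:**
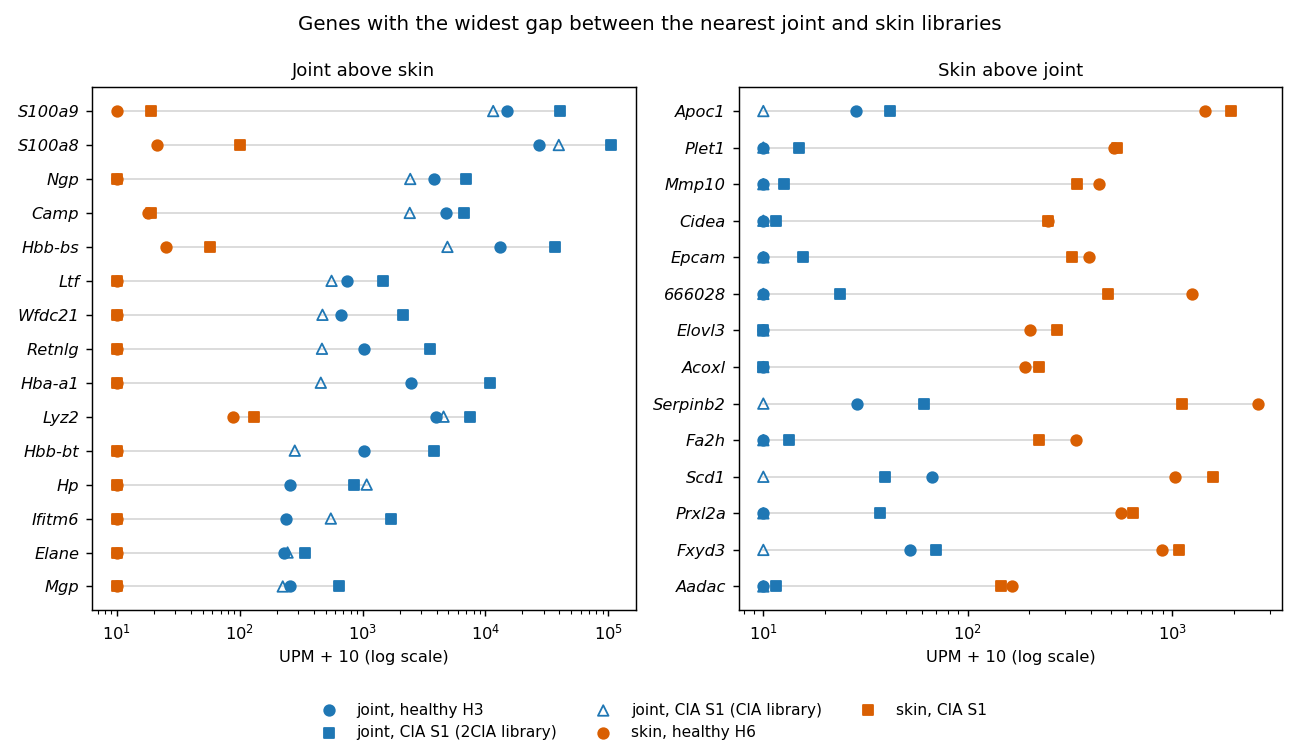
Genes among the 15 with the widest gap between the nearest joint and skin libraries in each direction are shown by library, with UPM + 10 on a log axis and 1 point for each of the 5 libraries. The joint side holds S100a8, S100a9, Ngp and globins, and the skin side Plet1, Mmp10, Epcam and lipid genes.

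To show the sequence at the start of genes on both sides, promoter stretches of 150 bases, 120 before and 30 after the start, are given 5′ to 3′ from RefSeq (GRCm38.p6) for genes chosen after their values were seen. The first 3 genes were higher in joint and the last 3 in skin. Capitals mark exact matches on either strand, and the match in Ngp is on the strand opposite to the printed one. The motif TATAAA is the box bound by TBP, the motif TGANTCA is the core bound by AP-1 factors, and the motif TTGCNNAA is a core bound by C/EBP factors. The searches covered both strands, and no matches overlapped in these stretches.
S100a8 (chr3:90668951-90669100, + strand): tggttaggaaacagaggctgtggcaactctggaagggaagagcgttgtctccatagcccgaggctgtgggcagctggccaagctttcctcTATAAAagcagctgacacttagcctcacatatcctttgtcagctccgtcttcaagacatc
S100a9 (chr3:90695692-90695841, - strand): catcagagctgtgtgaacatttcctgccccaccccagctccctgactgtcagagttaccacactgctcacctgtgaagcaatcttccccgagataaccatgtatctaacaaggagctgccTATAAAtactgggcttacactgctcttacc
Ngp (chr9:110419688-110419837, + strand): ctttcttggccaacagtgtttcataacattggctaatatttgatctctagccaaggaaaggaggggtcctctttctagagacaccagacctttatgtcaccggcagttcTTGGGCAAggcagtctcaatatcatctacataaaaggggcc
Mmp10 (chr9:7502222-7502371, + strand): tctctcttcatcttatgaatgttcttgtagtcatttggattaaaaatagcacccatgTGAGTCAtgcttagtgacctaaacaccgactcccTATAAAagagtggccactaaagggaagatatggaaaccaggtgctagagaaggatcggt
Krtdap (chr7:30787785-30787934, + strand): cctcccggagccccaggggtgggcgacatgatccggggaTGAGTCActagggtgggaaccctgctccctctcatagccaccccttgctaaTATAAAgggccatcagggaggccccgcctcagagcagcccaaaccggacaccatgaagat
Plet1 (chr9:50494405-50494554, + strand): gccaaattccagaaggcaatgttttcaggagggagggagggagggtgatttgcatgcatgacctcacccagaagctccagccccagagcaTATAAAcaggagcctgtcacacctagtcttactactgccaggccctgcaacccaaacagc

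Counted from the start site, TATAAA began at -30 in S100a8, Krtdap and Plet1 and at -29 in Mmp10. In S100a9 it began at position 1 of the start given in the table. TGANTCA began at -63 in Mmp10 and at -81 in Krtdap, and TTGCNNAA at -11 in Ngp. Over windows of 300 bases (250 before and 50 after the start, both strands), TATAAA occurred in 28.1% of the 160 promoters matched to genes called higher in joint and in 13.4% of the 112 matched to genes called higher in skin, against 8.9% of 4776 promoters of tested genes and 13.6% of all 32851. TGANTCA occurred in 6.25% and 17.9%, against 6.11% of tested and 7.81% of all promoters. TTGCNNAA occurred in 15.6% and 17.9%, against 8.77% and 10.8%. Within the 150 bases of the printed window, TTGCNNAA was in 6.25% of joint-side, 3.57% of skin-side and 3.66% of tested promoters, so that the skin side was not above the tested genes there. In the same window TATAAA was in 18.8%, 12.5% and 5.03%, and TGANTCA in 5% and 8.93% against 3.18%. Promoters were found for 126 of the 174 and 87 of the 117 called genes. These shares describe letters in a window and were not tested.

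Col2a1, Acan and Hapln1, defining genes of cartilage, were above 0 in S1-2CIA joint and listed at 0 in the other joint libraries. Col2a1, the fibrillar collagen of cartilage, had 1455 UPM there and was listed at 0 in H3 and S1-CIA joint and in both skin libraries (3.55 ± 1.55 SE, limma adjusted p = 0.23). Acan, aggrecan, had 0, 128 and 0 UPM in joint and 2.13 and 0 UPM in skin (1.71 ± 1.54 SE, limma adjusted p = 0.586). Hapln1, which links aggrecan to hyaluronan, had 141 UPM in S1-2CIA joint and was at 0 elsewhere. None of these 3 genes was called. Snorc, a membrane proteoglycan of cartilage, had 22.3, 239.9 and 0 UPM in joint, and Chad, a leucine-rich matrix protein, had 24.8, 189 and 0 UPM, with both at 0 in skin. Col10a1 and Cytl1 were instead highest in the healthy joint. Col10a1, the collagen of hypertrophic chondrocytes, had 135 UPM in H3 joint and was at 0 in the other libraries, and Cytl1, a secreted cytokine-like protein of chondrocytes, had 149.9, 11.9 and 0 UPM in joint and 0 in skin.

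Matrix proteins that cartilage shares with tendon and ligament were more evenly present. Comp, the pentameric cartilage oligomeric matrix protein, had 345, 929 and 97.8 UPM in joint and 0 and 51.4 UPM in skin (4.50 ± 0.75 SE, limma adjusted p = 0.00228). Fmod, the collagen-binding proteoglycan fibromodulin, had 109, 459.7 and 0 UPM in joint and was at 0 in skin (4.51 ± 0.69 SE, limma adjusted p = 0.00138). Prelp, a leucine-rich proteoglycan that anchors basement membranes, had 81.4, 168 and 0 UPM in joint and 0 and 13.2 UPM in skin (3.02 ± 0.69 SE, limma adjusted p = 0.0191). All 3 were called higher in joint, and for Comp the 3 joint libraries lay above both skin libraries. Sox9, a transcription factor of chondrocytes and of hair follicle stem cells, went the other way, with 63.4, 165 and 0 UPM in joint and 566 and 442 UPM in skin (-2.22 ± 0.52 SE, limma adjusted p = 0.022). Of 29 cartilage genes in the table, 15 passed the filter on low values, 3 were called higher in joint and 1 higher in skin, and the median difference was 2.54. The filter kept a gene also where 1 organ alone was high. Within mouse S1, in the libraries of both organs with the 2CIA suffix, the median was 3.42, and between the healthy mice it was 1.69.

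Lubricin and fibronectin set the joint apart among synovial genes. Prg4, which encodes lubricin, had 1460, 892 and 1154 UPM in joint and 10.6 and 77.7 UPM in skin (4.83 ± 0.62 SE, limma adjusted p = 0.000311). Fn1, fibronectin of the extracellular matrix, had 302, 1037 and 157 UPM in joint and 44.6 and 25 UPM in skin (3.67 ± 0.59 SE, limma adjusted p = 0.00186). For both genes every joint library lay above both skin libraries, and the healthy joint was the highest library for Prg4. Mmp3, stromelysin of activated fibroblasts, had 46.3, 897 and 4238 UPM in joint and 2563 and 2319.8 UPM in skin and was not called (-3.12 ± 0.98 SE, limma adjusted p = 0.0897). Its joint libraries spanned the skin values, with H3 far below and S1-CIA above them.

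Other genes named from the synovial lining list were not called. Timp1, an inhibitor of matrix metalloproteinases, had 60.4, 468 and 607 UPM in joint and 0 and 95.1 UPM in skin, and Has2, a synthase of hyaluronan, had 0, 37.6 and 0 UPM in joint and 152 and 90.2 UPM in skin. Their adjusted p-values by limma were 0.17 and 0.053. Pdpn, the membrane glycoprotein podoplanin, had 157, 122 and 181 UPM in joint and 234 and 245 UPM in skin, and Cd44, the hyaluronan receptor, had 219, 425 and 77.8 UPM in joint and 449 and 368 UPM in skin. Neither was called. On the scaled values the skin libraries lay above joint for Pdpn, and the libraries of Cd44 overlapped. In plain UPM, S1-CIA joint lay above both skin libraries for Pdpn, and skin lay above all joint libraries for Cd44. In all, 18 of 23 synovial lining genes were tested, 2 were called higher in joint, 0 higher in skin, and the median difference was 0.36.

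Of 10 tendon and ligament genes tested, 3 were called higher in joint, and the median was 2.56. Comp and Fmod were among them, since the list shares them with cartilage. Ogn, the small proteoglycan osteoglycin, had 194, 146 and 86.6 UPM in joint and 15.4 and 31.9 UPM in skin (2.46 ± 0.53 SE, limma adjusted p = 0.0147), and all joint libraries lay above skin. Thbs4, a thrombospondin of tendon, had 29.1, 259 and 285 UPM in joint and was at 0 in skin (3.41 ± 0.96 SE, limma adjusted p = 0.0601). Aspn, the proteoglycan asporin, had 849.7, 735 and 121 UPM in joint and 342 and 169 UPM in skin, an overlap through S1-CIA joint, with an adjusted p of 0.0684 by limma.

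Ibsp, Spp1, Omd and Sparc, genes of bone matrix, were highest in S1-2CIA joint. Bglap3 and Runx2, below the minimum for a test, were highest elsewhere, Bglap3 in H3 joint (36.4 UPM) and Runx2 in H6 skin (20.2 UPM). Ibsp, the bone sialoprotein that seeds mineral, had 102, 1389 and 0 UPM in joint and was at 0 in skin, and it was the only one of 5 tested osteoblast genes to be called (5.26 ± 0.86 SE, limma adjusted p = 0.00209). Spp1, osteopontin, had 0, 1974 and 718 UPM in joint and 7.97 and 0 UPM in skin and was not called (3.38 ± 1.59 SE, limma adjusted p = 0.269). It was listed at 0 in the healthy joint and lay above skin in both joint libraries of S1. Omd, the proteoglycan osteomodulin of bone, had 26.1, 328 and 0 UPM in joint and 0 in skin (adjusted p = 0.0667 by limma). Sparc, a collagen-binding protein of bone and of many fibroblasts, had 2377, 8914 and 1222 UPM in joint and 678 and 1874 UPM in skin, and the groups overlapped.

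No osteoclast gene was called by limma among 5 tested (0 at an unadjusted p under 0.05), with a median of -0.40. Ctsk, the collagen-degrading cathepsin K of osteoclasts and fibroblasts, had 119, 276 and 0 UPM in joint and 54.7 and 555 UPM in skin, and its highest library was S1 skin. Among 6 marrow stroma genes, 1 was called in each direction. Hp, haptoglobin, which binds free haemoglobin and which neutrophils also store, had 245, 846 and 1071 UPM in joint and 0 in skin (5.61 ± 0.63 SE, limma adjusted p = 0.000128). Angptl4, an inhibitor of lipoprotein lipase, had 0, 58.6 and 0 UPM in joint and 194 and 199.9 UPM in skin (-3.02 ± 0.73 SE, limma adjusted p = 0.0266). Cxcl12, the chemokine that holds progenitors in marrow, had 216, 293 and 304 UPM in joint and 55.8 and 172 UPM in skin and was not called, although the joint libraries all lay above skin.

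Genes of macrophages and monocytes, some of them shared with neutrophils, fell on both sides. Lyz2, lysozyme of macrophages and neutrophils, had 3938, 7427 and 4551 UPM in joint and 78.1 and 121 UPM in skin (5.67 ± 0.46 SE, limma adjusted p = 5.43e-06). Ly6c2, a surface marker of inflammatory monocytes, had 284, 640.1 and 469 UPM in joint and 29.2 and 0 UPM in skin (4.48 ± 0.67 SE, limma adjusted p = 0.00111), with no overlap. Retnla, a secreted product of alternatively activated macrophages, had 1149, 104 and 0 UPM in joint and 0 in skin, and was highest in the healthy joint (5.14 ± 0.85 SE, limma adjusted p = 0.00223). Apoe, the lipid carrier apolipoprotein E, was higher in skin, with 372, 469 and 97.8 UPM in joint against 2106 and 1532 UPM in skin (-2.11 ± 0.42 SE, limma adjusted p = 0.00818). Complement genes C1qb and C1qc, the lipid receptor Trem2, the chemokine receptor Ccr2 and the lysosomal protein Cd68 were not called, although all joint libraries lay above skin for each of them but C1qb. Of 10 genes tested on the macrophage and monocyte list, 4 were called higher in joint and 1 higher in skin, with a median of 2.84. With Lyz2, Ly6c2 and Retnla these were Fn1, which is also on the synovial lining list, and Apoe in skin.

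**Figure D3:**
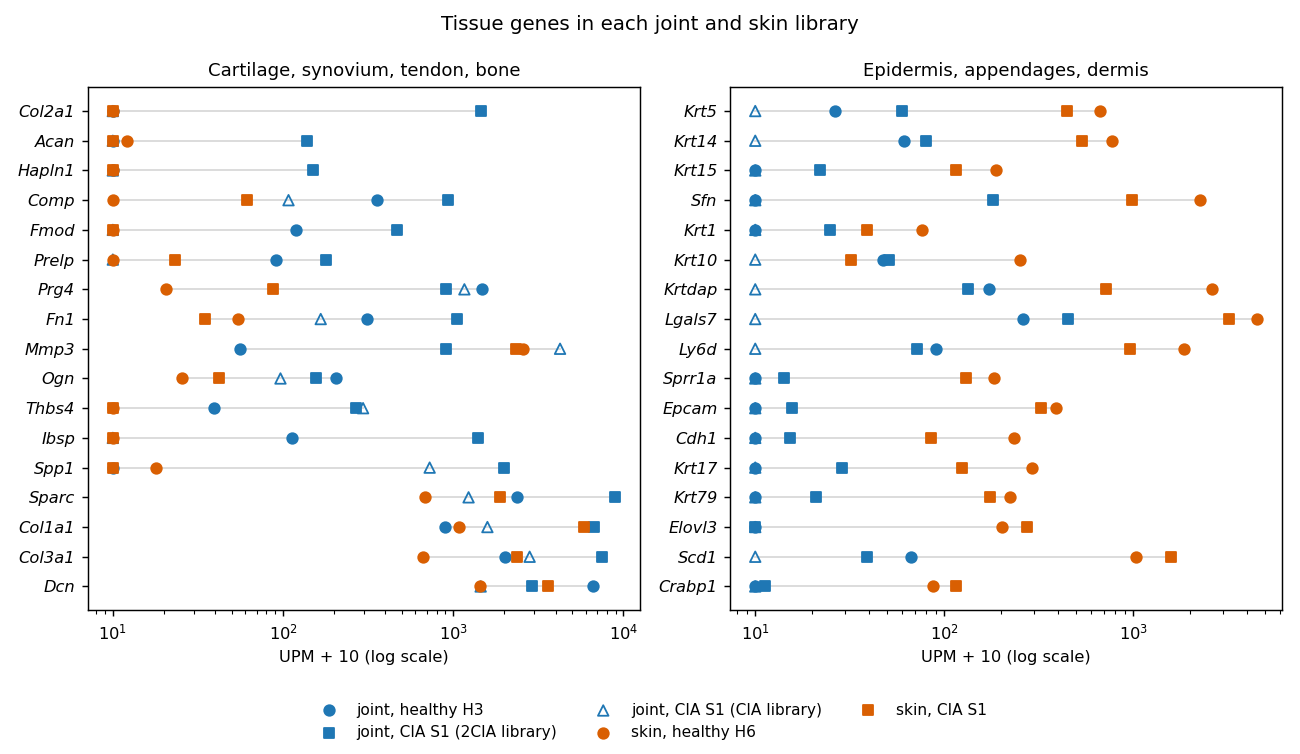
Levels of genes of the joint (left) and of the skin (right) are shown by library, as UPM + 10 on a log axis, with 1 point for each of the 5 libraries. Col2a1, Acan and Hapln1 stand out in S1-2CIA joint alone, Prg4 is high in all joint libraries, and Col1a1 and Dcn overlap between organs. Most keratinocyte genes are high in both skin libraries, but Krt1 is low throughout, and Krt10 in S1 skin lies below H3 and S1-2CIA joint.

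On the skin side, the widest gap between libraries was in genes of keratinocytes and lipid-making cells. Plet1, a surface protein of hair follicle and other epithelial progenitors, had 0, 5.03 and 0 UPM in joint and 509 and 529 UPM in skin (-5.45 ± 0.52 SE, limma adjusted p = 2.88e-05). Mmp10, stromelysin 2, which keratinocytes make when they migrate, had 0, 2.67 and 0 UPM in joint and 428 and 332 UPM in skin (-5.11 ± 0.53 SE, limma adjusted p = 7.22e-05). Epcam, an epithelial adhesion molecule, had 0, 5.66 and 0 UPM in joint and 381 and 314 UPM in skin (-4.85 ± 0.54 SE, limma adjusted p = 0.000117). In each of the 3 genes the healthy and the CIA skin lay close together and S1-2CIA was the only joint library above 0. Apoc1, an apolipoprotein, had 18.4, 31.4 and 0 UPM in joint and 1429 and 1919 UPM in skin (-5.64 ± 0.48 SE, limma adjusted p = 7.26e-06), and Serpinb2, an intracellular protease inhibitor, 18.8, 50.7 and 0 UPM in joint and 2608 and 1109 UPM in skin (-5.40 ± 0.55 SE, limma adjusted p = 5.63e-05). A row known only by its Entrez number, 666028, had 0, 13.8 and 0 UPM in joint and 1236 and 477 UPM in skin.

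Basal keratinocyte genes marked skin. Krt5, a keratin of the basal layer, had 16.3, 49.6 and 0 UPM in joint and 654 and 439 UPM in skin (-3.83 ± 0.54 SE, limma adjusted p = 0.000689). Its partner Krt14 had 51.4, 69.9 and 0 UPM in joint and 764 and 525 UPM in skin (-3.24 ± 0.48 SE, limma adjusted p = 0.00111). Krt15, a keratin of basal and follicle stem cells, had 0, 11.9 and 0 UPM in joint and 178 and 106 UPM in skin (-3.34 ± 0.65 SE, limma adjusted p = 0.00668). Skin libraries lay above joint for all 3 keratins, H6 skin was the highest library for each, and S1-CIA joint was at 0. Sfn, the 14-3-3 protein of epithelia, had 0, 172 and 0 UPM in joint and 2235 and 976 UPM in skin (-5.17 ± 0.93 SE, limma adjusted p = 0.00414), and Aqp3, a glycerol channel, had 27.4, 27.7 and 0 UPM in joint and 468 and 270 UPM in skin (-3.32 ± 0.51 SE, limma adjusted p = 0.0015).

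Perp, a desmosomal target of p53 and p63, was also called (-2.92 ± 0.54 SE, limma adjusted p = 0.00491), from 26.6, 83.6 and 0 UPM in joint and 469 and 373 UPM in skin. Trp63, the transcription factor p63 that maintains the basal layer, had 0, 16.7 and 0 UPM in joint and 80.3 and 97.9 UPM in skin and missed the threshold (adjusted p = 0.0508 by limma). Col17a1, the hemidesmosomal collagen, also missed it, with 0, 16.7 and 0 UPM in joint and 251 and 45.8 UPM in skin (adjusted p = 0.0508 by limma). Of 13 basal genes tested, 6 were called higher in skin, 0 higher in joint, 9 had all skin libraries above joint, and the median was -2.92. Within the S1 pair with the 2CIA suffix, in which both libraries kept rare genes, the median was -2.02. Summed levels were 604, 1752 and 403 UPM in joint and 6428 and 3974 UPM in skin.

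Genes of the layers above were called at a like count, 6 of 10 higher in skin, with a median of -2.85. Krtdap, a secreted peptide of differentiating keratinocytes, had 163, 123 and 0 UPM in joint and 2608 and 707 UPM in skin (-3.22 ± 0.57 SE, limma adjusted p = 0.00356). Lgals7, galectin 7 of stratified epithelia, had 252, 439 and 0 UPM in joint and 4524 and 3201 UPM in skin (-3.53 ± 0.43 SE, limma adjusted p = 0.000221). Ly6d, a surface protein of keratinocytes and of early B cells, had 80.9, 62.1 and 0 UPM in joint and 1849.5 and 957 UPM in skin (-4.09 ± 0.49 SE, limma adjusted p = 0.0002). Dmkn, dermokine, had 45.4, 68 and 0 UPM in joint and 490 and 396 UPM in skin (-2.82 ± 0.49 SE, limma adjusted p = 0.00282). In these 4 genes skin lay above joint throughout, and H6 skin above S1 skin.

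The differentiation keratins themselves were low. Krt1 had 0, 14.9 and 0 UPM in joint and 66.4 and 29.2 UPM in skin, and Krt10 37.3, 41.2 and 0 UPM in joint and 241 and 22.2 UPM in skin. Neither was called, and for Krt10 S1 skin lay below H3 and S1-2CIA joint. The cornified envelope, the crosslinked protein shell of dead surface cells, was at the edge of detection, with 15 of 20 of its genes above 0 in some library and 2 passing the filter. Sprr1a, a crosslinked precursor of that shell, was called, with 0, 4.24 and 0 UPM in joint and 173 and 121 UPM in skin (-3.71 ± 0.64 SE, limma adjusted p = 0.00299). Asprv1, a protease of the same layer, was not called, with 0, 106 and 0 UPM in joint and 10.1 and 6.25 UPM in skin (0.87 ± 1.26 SE, limma adjusted p = 0.75). The list summed to 0, 205 and 0 UPM in joint and 349.7 and 185 UPM in skin. S1-2CIA joint thus lay above S1 skin on the scaled values, but below it in plain UPM. Lor, the main protein of the shell, had 7.44 UPM in H6 skin and was listed at 0 in the other libraries.

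Adhesion genes of epithelia were called higher in skin for 5 of 10 tested, with a median of -2.57. Cdh1, E-cadherin, had 0, 5.34 and 0 UPM in joint and 223 and 75 UPM in skin (-3.52 ± 0.71 SE, limma adjusted p = 0.0085). Cldn4, a tight junction claudin, had 0, 37.4 and 0 UPM in joint and 434 and 258 UPM in skin (-4.03 ± 0.67 SE, limma adjusted p = 0.0023). Dsp, desmoplakin, had 0, 37.1 and 0 UPM in joint and 120.1 and 117 UPM in skin, and Cldn1, the claudin of the epidermal barrier, 0, 28.4 and 0 UPM in joint and 140.3 and 112 UPM in skin, with adjusted p of 0.0475 and 0.0256 by limma. Skin libraries were above joint for all 4.

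Of the hair follicle genes 29 were in the table, 7 were tested and 3 were called higher in skin (median -2.84). Krt79, a keratin of the follicle opening, had 0, 10.8 and 0 UPM in joint and 212 and 165 UPM in skin (-3.80 ± 0.60 SE, limma adjusted p = 0.00164). Krt17, a keratin of follicle and wounded epidermis, had 0, 18.9 and 0 UPM in joint and 281 and 115 UPM in skin (-3.52 ± 0.66 SE, limma adjusted p = 0.00533). Fst, follistatin, an activin antagonist, had 13.7, 47.3 and 0 UPM in joint and 446 and 149 UPM in skin (-2.91 ± 0.62 SE, limma adjusted p = 0.0131). For each gene H6 skin was the higher skin library, and skin and joint did not overlap.

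Sebaceous and lipid genes were called higher in skin for 8 of 13 tested, with a median of -3.27. Scd1, which makes monounsaturated fatty acids, had 56.5, 29.2 and 0 UPM in joint and 1023 and 1579 UPM in skin (-4.69 ± 0.50 SE, limma adjusted p = 8.09e-05). Elovl3, an elongase of very long fatty acids in sebocytes, had 0 in all joint libraries and 192 and 264 UPM in skin. Cidea, which enlarges lipid droplets, had 0, 1.57 and 0 UPM in joint and 238 and 237 UPM in skin (-4.53 ± 0.57 SE, limma adjusted p = 0.000246). Unlike Krt5 and Krt14, Scd1 and Elovl3 were higher in S1 than in H6 skin, a difference of 1 mouse from another that was not tested.

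Further lipid genes were called higher in skin. Elovl4, an elongase for skin ceramides, was at 0 in joint and had 48.9 and 383 UPM in skin (-3.93 ± 0.85 SE, limma adjusted p = 0.0146), and Scd3 was at 0 in joint with 54.2 and 229 UPM in skin (-3.63 ± 0.82 SE, limma adjusted p = 0.0183). Far2, which makes fatty alcohols for wax, had 0, 10.5 and 0 UPM in joint and 132 and 119 UPM in skin (-3.27 ± 0.65 SE, limma adjusted p = 0.00812). Fabp5, the epidermal fatty acid binding protein, had 30.8, 85.3 and 40 UPM in joint and 585 and 625 UPM in skin (-3.30 ± 0.52 SE, limma adjusted p = 0.00176). Mgst1, a glutathione transferase of sebocytes, was above 0 in every library, with 304, 721 and 249 UPM in joint and 1962 and 3088 UPM in skin (-2.38 ± 0.48 SE, limma adjusted p = 0.0082). Fa2h, which hydroxylates fatty acids for skin lipids, had 0, 3.3 and 0 UPM in joint and 328 and 214 UPM in skin (-4.59 ± 0.56 SE, limma adjusted p = 0.000233).

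Pigment cell genes were sparse. Of 9 melanocyte genes above 0, 2 were tested and 0 called by limma (0 at an unadjusted p under 0.05), with a median of -1.60. The list summed to 30.8, 61.6 and 0 UPM in joint and to higher levels in skin, 110 and 321 UPM. Dct, a melanin enzyme, was at 0 in joint and had 7.44 and 198 UPM in skin (-2.59 ± 1.27 SE, limma adjusted p = 0.285). The list of Langerhans cells and epidermal T cells was called higher in joint for 2 of 7 genes and in skin for 1, Epcam. The 2 genes were Cd74, the invariant chain of MHC class II, with 1499.8, 422 and 328 UPM in joint and 97.3 and 109 UPM in skin (2.86 ± 0.56 SE, limma adjusted p = 0.00748), and Fcer1g, an Fc receptor chain of many myeloid cells, with 215, 688 and 214 UPM in joint and 6.38 and 0 UPM in skin (4.93 ± 0.62 SE, limma adjusted p = 0.000246).

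**Figure D4:**
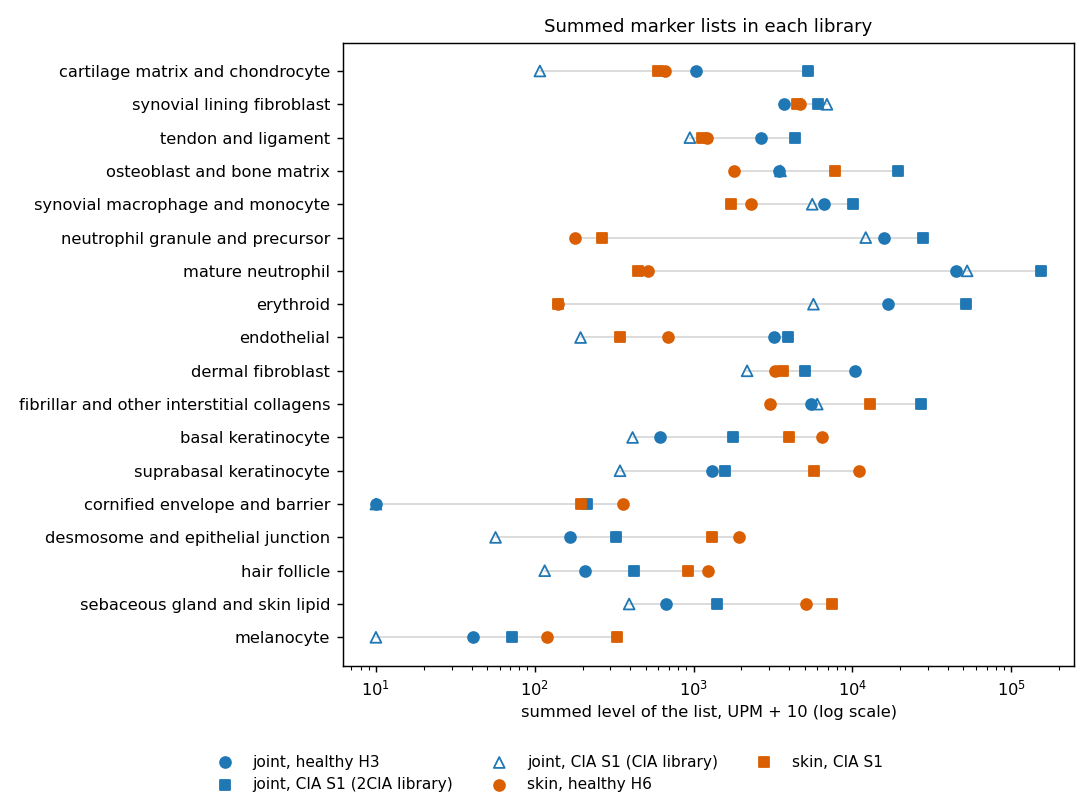
The summed level of each of 18 gene lists is shown for the 5 libraries, in UPM on a log axis. Neutrophil, erythroid and macrophage lists lie higher in all joint libraries, keratinocyte and sebaceous lists higher in both skin libraries, and the collagen list overlaps between organs.

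The collagen scaffold common to both organs did not separate them. Col1a1, the main chain of type I collagen, had 887, 6733 and 1579.6 UPM in joint and 1069 and 5848 UPM in skin (-0.06 ± 0.81 SE, limma adjusted p = 0.982). Col3a1, type III collagen, had 2002, 7524 and 2805 UPM in joint and 651 and 2355 UPM in skin (1.63 ± 0.63 SE, limma adjusted p = 0.167). Dcn, the proteoglycan decorin, had 6643, 2879 and 1441 UPM in joint and 1419 and 3621 UPM in skin (0.94 ± 0.50 SE, limma adjusted p = 0.327). The libraries of the organs were interleaved for all 3 genes. Among 13 interstitial collagens tested, 0 were called by limma in either direction (3 at an unadjusted p under 0.05), with a median of 1.20. Among 11 basement membrane genes limma called 0 (2 unadjusted), with a median of 1.04. At 2 mice an organ these p-values do not show that the levels were alike.

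Other matrix genes did differ. Of 29 small proteoglycans and matrix glycoproteins tested, 9 were called higher in joint and 0 higher in skin, with a median of 1.62. Sparcl1, an adhesion-modulating protein of vessels and stroma, had 527, 425 and 96.6 UPM in joint and 78.7 and 13.9 UPM in skin (3.37 ± 0.61 SE, limma adjusted p = 0.0041). Fbn1, fibrillin of elastic fibres, had 112, 286 and 108 UPM in joint and 20.7 and 40.3 UPM in skin (2.26 ± 0.58 SE, limma adjusted p = 0.0366), and Ecm1, a secreted matrix protein, had 433, 207 and 149 UPM in joint and 68.6 and 27.8 UPM in skin (2.53 ± 0.56 SE, limma adjusted p = 0.0162). Joint libraries all lay above skin for Sparcl1, whose S1-CIA value was close to that of H6 skin. Mgp, an inhibitor of calcification made in cartilage and vessel walls, had 245, 638 and 214 UPM in joint and was at 0 in skin (5.33 ± 0.59 SE, limma adjusted p = 0.000108).

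Matrix proteases and inhibitors gave 4 genes higher in joint and 1 higher in skin of 28 tested (median 0.88). Ctss, the lysosomal cathepsin S of antigen-presenting cells, had 389, 342 and 989.7 UPM in joint and 28.7 and 31.2 UPM in skin (3.42 ± 0.49 SE, limma adjusted p = 0.000801). Mmp8, the neutrophil collagenase, had 69, 362 and 53.3 UPM in joint and 0 in skin (4.06 ± 0.77 SE, limma adjusted p = 0.00581). Serpinf1, an antiangiogenic serpin of fibroblasts, had 512, 334 and 141 UPM in joint and 57.9 and 64.6 UPM in skin (2.57 ± 0.49 SE, limma adjusted p = 0.00599). All joint libraries lay above skin for these 3 genes. The fourth was Htra3, a serine protease of stroma (2.73 ± 0.67 SE, limma adjusted p = 0.031), and the gene higher in skin was Mmp10.

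The dermal fibroblast list, although fixed as a skin list, was called higher in joint for 4 of 20 genes and higher in skin for 1, with a median of 1.31. The 4 genes were Mfap5, a microfibril protein, Clec3b, tetranectin, and the surface antigens Ly6a and Ly6c1, which stroma shares with endothelium. Their log2 differences were 2.14, 1.98, 2.20 and 2.17, with limma adjusted p of 0.018, 0.0424, 0.0223 and 0.0162. Crabp1, a retinoic acid binding protein of the dermis, was the gene higher in skin, with 0, 1.26 and 0 UPM in joint and 77.6 and 106 UPM in skin (-3.25 ± 0.79 SE, limma adjusted p = 0.0287). Gsn, the actin-severing protein gelsolin, had 6908, 744 and 263 UPM in joint and 530.4 and 510.2 UPM in skin and was not called (adjusted p = 0.13 by limma), with H3 joint far above the other libraries.

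Position genes were few. Of 34 transcription factors of limb and body position, 5 passed the filter, 0 were called by limma (2 at an unadjusted p under 0.05), and 4 had both skin libraries above all joint libraries. Twist2, which marks dermal precursors, had 0, 1.89 and 0 UPM in joint and 40.4 and 62.5 UPM in skin, and Shox2, a limb skeletal factor, had 0, 8.01 and 0 UPM in joint and 53.7 and 41 UPM in skin. Of 8 BMP, GDF and Wnt genes tested, Fst was the 1 called.

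Because whole libraries mix cell types, barcodes with at least 1% of their units in Col1a1, Col1a2 and Col3a1 were summed on their own, a step added after the data were seen. There were 41, 203 and 20 such barcodes in joint and 20 and 40 in skin, of 15, 70, 5, 9 and 5 distinct profiles, and values are UPM of their own units, unscaled, with no test. Prg4 stood at 3429, 1861 and 7200.4 in joint and 30.4 and 350.2 in skin, and Comp at 953, 1999 and 636 against 0 and 125. Mgp was 1079.8, 1219 and 1229 in joint and 0 in both skin libraries. Nr2f2, a nuclear receptor of mesenchyme, was 126, 157 and 361 against 6.07 and 0. Prg4, Comp, Mgp and Nr2f2 thus lay higher in joint among the collagen-rich barcodes too. Cd74 was called higher in joint over whole libraries but lay on the skin side here, with 108, 37.7 and 72.3 in joint and 668 and 225 in skin.

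On the skin side of these barcodes, Igfbp2, an IGF-binding protein, was 0 in all joint libraries and 279 and 632 UPM in skin. Crabp1 was 0, 2.96 and 0 against 261 and 156, Twist2 0, 4.44 and 0 against 121 and 169, and Shox2 0, 14.8 and 0 against 200.4 and 106. S100a8 was still 3057, 19565 and 11559.6 UPM in the joint barcodes against 0 and 100.1 in skin, so units of a neutrophil gene were present in them. Of 5282 genes whose mean reached 25 UPM of these barcodes, 418 were higher in all joint libraries, 152 of them by at least 2-fold, and 834 were higher in both skin libraries, 247 of them by at least 2-fold.

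Of 10 endothelial genes tested, 6 were called higher in joint and 0 higher in skin, and the median was 2.31. All joint libraries lay above skin for 1 of the 10, and the summed level of the list was 3183, 3901 and 184 UPM in joint against 682 and 335 UPM in skin, so that S1-CIA joint lay below both skin libraries. Fabp4, a fatty acid binding protein of capillaries and fat, had 1667, 1809 and 85.5 UPM in joint and 224 and 84 UPM in skin (3.51 ± 0.50 SE, limma adjusted p = 0.000765). Aqp1, a water channel of endothelium and red cells, had 272, 302 and 0 UPM in joint and 17 and 18 UPM in skin (3.38 ± 0.50 SE, limma adjusted p = 0.00111). Both overlapped with skin through S1-CIA joint, the library that listed most rare genes at 0. Flt1, Egfl7 and Plvap, a VEGF receptor, a secreted vessel protein and a component of fenestrae, were also called, with differences of 2.30, 3.32 and 2.31 and limma adjusted p of 0.0424, 0.00812 and 0.0212. Among 10 pericyte and smooth muscle genes limma called 0 (6 at an unadjusted p under 0.05, median 1.43), and the libraries did not overlap for 1 gene higher in joint and 2 higher in skin. Fabp4 was also the 1 of 4 adipocyte genes called, and the 1 skeletal muscle gene tested was not called.

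Inflammatory genes were mixed. Of 21 cytokines and chemokines tested, 3 were called higher in joint, with a median of 0.57. Ccl3 and Ccl4, chemokines of myeloid cells, were called with Ccl6, a chemokine of macrophages and neutrophils. Ccl3 had 95.5, 194 and 0 UPM in joint and 0 and 10.4 UPM in skin (3.31 ± 0.66 SE, limma adjusted p = 0.00818), and Ccl4 had 86.5, 196 and 0 UPM in joint and 0 in skin (3.77 ± 0.73 SE, limma adjusted p = 0.00668). Both were listed at 0 in S1-CIA joint. Ccl2, which draws monocytes, had 484, 519 and 775 UPM in joint and 797 and 1675 UPM in skin, and Cxcl1, which draws neutrophils, had 657, 803 and 673 UPM in joint and 1828 and 1434 UPM in skin. For both the skin libraries lay above all joint libraries on the scaled values, and neither was called (limma adjusted p = 0.209 and 0.148). In plain UPM, S1-CIA joint lay above H6 skin for Ccl2, and the skin libraries stayed above joint for Cxcl1.

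Of the epithelial S100, serpin and antimicrobial genes, 5 of 22 were called higher in joint and 4 higher in skin. On the joint side were Camp, Wfdc21 and Lcn2, which neutrophils make, with S100a4 and S100a13. Lcn2, the siderophore-binding lipocalin 2, had 337, 1358 and 311 UPM in joint and 8.5 and 24.3 UPM in skin (4.75 ± 0.63 SE, limma adjusted p = 0.000442), and Wfdc21, a secreted antimicrobial-type protein, 660.4, 2119 and 462 UPM and 0 in skin. On the skin side were Serpinb2, Serpinb5, S100a14 and Defb8. S100a14, an epithelial calcium-binding protein, had 0, 29.1 and 0 UPM in joint and 325 and 311 UPM in skin (-4.09 ± 0.62 SE, limma adjusted p = 0.00138). Defb8, a beta-defensin, was at 0 in joint and had 809 and 66.6 UPM in skin (-4.65 ± 0.87 SE, limma adjusted p = 0.00535), a wide spread between the skin mice.

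The joint and skin of the healthy mice and those of S1 gave pairs that share no library. At least 2-fold higher in joint were 972 genes between H3 and H6 and 1158 within S1, and 513 in both. At least 2-fold higher in skin were 1371 and 959 genes, and 447 in both. In 64 and 67 genes the pairs lay at least 2-fold on opposite sides. Pearson's r across the 5734 genes was 0.56, which is a description over genes that are not independent, in libraries with different depth. S100a8 differed by 10.32 on the log2 scale between healthy mice and by 10.01 within S1, Prg4 by 6.15 and 3.50, and Krt5 by -4.66 and -2.99. The 3 genes were chosen with all joint libraries on one side of both skin libraries, which fixes their direction in both pairs. With 1 joint and 1 skin sample in each pair the effect of state on the organ difference could not be tested.

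By barcode, the organs differed in which lists held at least 1% of the units. Basal keratinocyte genes reached that share in 0% of the barcodes of every joint library and in 17.7% and 7.33% of skin barcodes. Suprabasal genes reached it in 0.518%, 2.64% and 0% against 49.4% and 18%, and sebaceous genes in 0% of every joint library against 8.86% and 14.7%. Counted over distinct profiles, the sebaceous shares were lower, 2.94% (2 of 68) and 4.84% (3 of 62). At 1%, the shares of these 3 lists were higher in both skin libraries than in any joint library, and the suprabasal share was higher in H6 than in S1 skin. With a cut at 2%, basal genes reached it in 0% of barcodes in H6 and S1 skin and suprabasal genes in 9.49% and 0%. Sebaceous genes reached 2% in 8.86% and 8%, and all 3 lists in 0% of joint barcodes. The cornified, desmosome and hair follicle lists reached 1% in 0% of the barcodes of every library, and the list of epithelial S100, serpin and antimicrobial genes in 49.2%, 63.9% and 58.6% of joint barcodes and 57.0% and 12% of skin barcodes. Cartilage genes reached 1% in 5.78% of S1-2CIA joint barcodes and in 0% of the other libraries.

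Mature neutrophil genes reached 1% in 24.9%, 99.8% and 100% of joint barcodes and in 0% of skin barcodes, and erythroid genes in 68.9%, 41.1% and 1.43% against 0%. At 2% the joint shares were 17.1%, 56.1% and 15.7% for neutrophil and 15.0%, 16.8% and 0% for erythroid genes. Median erythroid shares per barcode were 1.13%, 0.925% and 0.88% in joint, close to the 1% cut. The order of the joint libraries thus depended on the cut. Every joint barcode carried neutrophil units, with lowest shares of 0.375%, 0.966% and 1.38% in H3, S1-2CIA and S1-CIA. Because the values are sums over neighbouring barcodes, these shares do not count neutrophils. Collagen genes reached 1% in 21.2%, 35.1% and 28.6% of joint barcodes and 12.7% and 26.7% of skin barcodes, and these ranges overlapped. With each distinct profile counted once they did not overlap, at 20%, 29.8% and 25% in joint against 13.2% and 8.06% in skin, since the 40 collagen-rich barcodes of S1 skin were 5 distinct profiles.

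**Figure D5:**
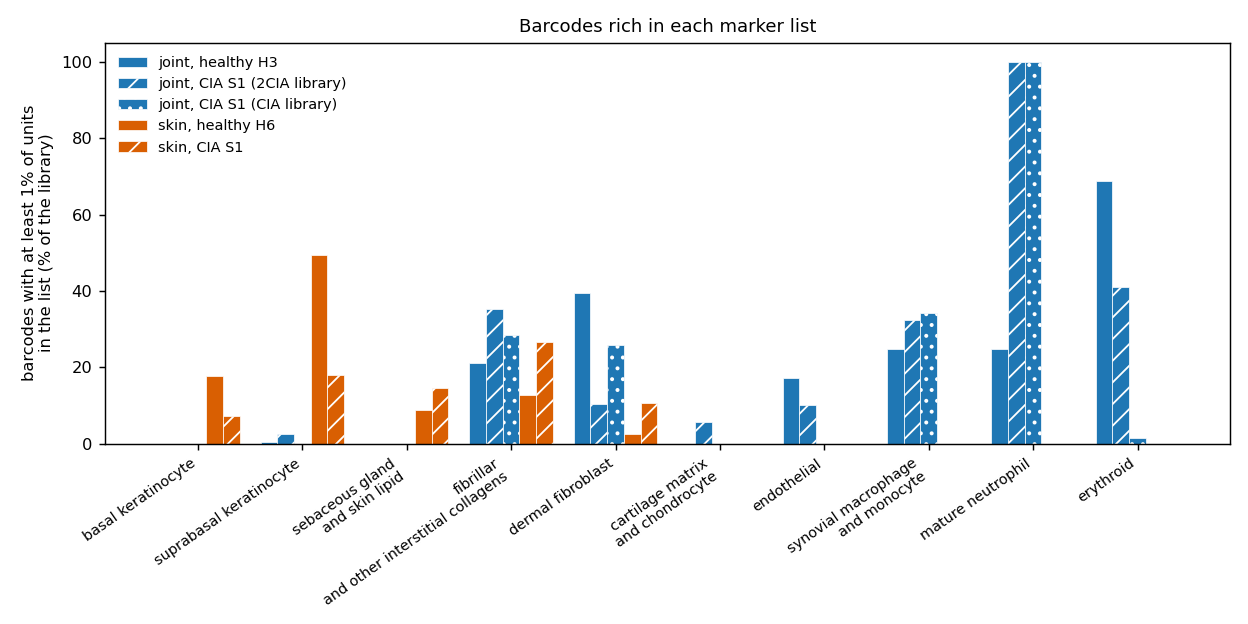
The share of barcodes in each library, in percent, whose units were at least 1% from a gene list is shown for 10 lists, with 1 bar for each of the 5 libraries. Keratinocyte and sebaceous lists reach that share in both skin libraries and in few or no joint barcodes, neutrophil, macrophage and erythroid lists in joint only, and collagens in both organs.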

How the data were processed

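Male DBA1/J joint and skin were cryopreserved, dissociated and captured in Seq-Well arrays. The authors aligned reads with STAR to GRCm38, counted molecules with Drop-seq tools and smoothed each barcode over its nearest neighbours, so the deposited values are a signal in whole units, not raw counts. The submitters' processing notes also name Picard and bcl2fastq. Units were summed per library from the 30-library table of 23013 Entrez rows, 21404 of which matched RefSeq symbols (GRCm38.p6), and the 2 S1 joint libraries were added up. Samples were scaled by an unweighted trimmed mean of log ratios (30% and 5% trimmed). Genes whose mean level reached 25 UPM were tested with limma 3.58.1 in R 4.3.3 (mean-variance trend, log2(UPM + 10), Benjamini-Hochberg, two-sided, threshold 0.05), after the script was tested on simulated data. No count model was used and no counting interval can be given, since smoothing shares molecules between barcodes. Python 3.11.15 with numpy 2.4.6, pandas 2.3.3 and matplotlib 3.10.9 did the rest.

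The comparison and gene lists were chosen with earlier results of these data known. Genes named were up to 8 members of each list with the highest mean, the 15 genes each way with the widest gap between nearest libraries, the 5 each way with the smallest p, and members above 0 of the cartilage, synovial lining, osteoblast, melanocyte and cornified lists; other genes were named after their values were seen, and a few are not reported here. Fold changes are on the log2(UPM + 10) scale and understate those of low genes. Another scaling, filter, pseudocount, covariate, sample unit and set of libraries were tried.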

Additional observations from a re-analysis of the deposited data

Results flagged for a closer look

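In 8 of the 140 genes compared across settings, chosen with their values known, the healthy pair (H3 joint and H6 skin) and the joint and skin of mouse S1 lay on opposite sides, with 1 sample per organ in each pair, so that none of these differences was tested. Values are log2 differences, joint minus skin, and then the S1 value minus the healthy value. Spp1, osteopontin, went from -0.85 to 7.60, a gap of 8.45, with 0 UPM in the healthy joint and 7.97 UPM in the healthy skin. Acan, aggrecan, went from -0.28 to 3.70, a gap of 3.98, but its healthy value rests on 0 UPM in joint and 2.13 UPM in skin and gives no clear side. Krt10, a keratin of differentiating epidermis, went from -2.41 to 0.59, a gap of 3.00, with a low value in S1 skin. Dcn, decorin, went from 2.22 to -0.33, a gap of -2.55, and Ctsk, cathepsin K, from 1.0 to -1.08, a gap of -2.08. Smaller gaps were 1.25 for Hbegf (-0.81 and 0.44), an EGF-family growth factor of synovial lining, 1.14 for Cd44 (-1.0 and 0.14) and 0.41 for Col1a1 (-0.27 and 0.15). Other genes tested also lay on opposite sides, such as Postn (-1.34 and 1.23), Col12a1 (-2.35 and 0.86) and Nfatc1 (-2.97 and 0.69), of which Col12a1 and Nfatc1 had 0 UPM in the healthy joint. The names of the healthy pair carry different suffixes, so state, mouse and suffix cannot be told apart here.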

How the results depend on the processing

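No paired analysis was possible because H3 gave no skin and H6 no joint, and a block for mouse left 0 residual degrees of freedom. Those degrees of freedom are for the 4 joint and skin samples. Both mice gave other organs, and a block for mouse in the fit of all 8 organs was not tested. Counts are for genes higher in joint and then in skin, 174 and 117 as reported. They were 248 and 188 with no filter on low values, 70 and 50 with a minimum of 100 UPM, 52 and 35 with a pseudocount of 1, 91 and 77 with each library as its own sample, 297 and 241 with state as a covariate, 217 and 182 with all 8 organs in the fit, 7 and 1 without S1-2CIA joint, 3 and 0 with 2CIA-suffix libraries only, and 0 and 0 with values under 50 UPM set to 0. Leaving out 1 mouse of an organ gave 0 to 18 and 0 to 9. Members of joint lists higher in joint, 11 as reported, and of skin lists higher in skin, 30 as reported, became 22 and 35 with no filter, 8 and 16 with the minimum of 100 UPM, 6 and 13 with a pseudocount of 1, 23 and 37 with state, 25 and 40 with all organs, 17 and 32 with each distinct profile counted once, 1 and 1 without S1-2CIA joint, 0 and 0 with 2CIA-suffix libraries only and 0 and 0 with the 50 UPM floor, and 0 to 3 and 0 to 1 without 1 mouse. The 441 and 1389 genes with separate libraries became 1255 and 1616 over the 4 samples and 151 and 264 at a 2-fold distance, and those 151 and 264 became 390 and 300 over the 4 samples, so that the larger count moved from skin to joint. The cause of these shifts was not tested, except that fewer samples or genes entered some fits. Each of the 99 called genes among the 140 compared kept its sign in the settings in which it was tested, which were all but the minimum of 100 UPM for 24 of them, and 94 stayed called with total units only, 52 with a pseudocount of 1 and 7 without S1-2CIA joint.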

Other observations

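Stress and state genes gave few calls. Of 27 immediate early and heat shock genes tested, 2 were called higher in joint by limma and 0 higher in skin, with a median difference of 0.66. They were Klf2, a transcription factor of quiescent endothelium and lymphocytes, with 261, 312 and 131 UPM in joint and 33.5 and 52.8 UPM in skin (2.49 ± 0.50 SE, limma adjusted p = 0.0085), and Gadd45g, a growth arrest protein, with 1233, 1183 and 444 UPM and 338 and 436 UPM (1.62 ± 0.42 SE, limma adjusted p = 0.0424). Of 11 interferon response genes, Ly6e and Ly6a were called higher in joint, with a median of 0.93. Of 12 cell cycle genes limma called 0 (1 at an unadjusted p under 0.05), with a median of 0.68. Lymphoid genes were sparse: 6 genes of the B cell list were tested, with Cd74 called higher in joint and Ly6d in skin, and the T cell and mast cell lists had 1 tested gene each, not called.

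The lists that set joint and skin apart were also read in the other organs of the table, as plain UPM, which were not scaled between organs. Libraries of the same mouse and organ were added up. Basal keratinocyte genes summed to 4033 to 6621 in skin, 717 to 1359 in joint and 75.7 to 910.0 over the other 6 organs. Cartilage genes summed to 1221 to 3968 in joint, 596 to 672 in skin, where Sox9 made up most of the sum, and 0 to 153.6 elsewhere, the highest in muscle. Taken alone, S1-CIA joint summed to 97.8 scaled UPM of cartilage genes, below 652 and 587 in H6 and S1 skin. Mature neutrophil genes summed to 53168 to 121781 in joint, 441 to 522 in skin, 2772 to 76954 in blood, 4365 to 91431 in spleen, 19150 to 89796 in muscle, 4540 to 22249 in lung, 371 to 3767 in lymph node and 394 to 1563 in thymus. Among families, 5 of 8 tested keratin genes were called higher in skin and 0 higher in joint, and their sums were 117.3, 359.6 and 0 UPM in joint against 2619 and 1574 UPM in skin. Of 21 collagen genes tested limma called 0 in either direction.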
